A study of Rattus norvegicus with 14 samples.

Results

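This account sets rat livers from a standard diet against livers from both altered magnesium diets, one with magnesium added and one short of it, and describes the transcripts that lay on the same side of the standard diet in both. All 14 arrays of the series entered: the 9 arrays whose titles name a supplemented (arrays 1 to 5) or a deficient diet (arrays 11 to 14), and the 5 titled standard diet (arrays 6 to 10). The main quantity for probe sets, genes and gene lists is the mean of the 2 altered-diet means minus the standard mean, on a log2 scale. Each altered diet therefore weighs the same although they hold 5 and 4 arrays. For array measures the 9 altered arrays were pooled. Total RNA of the left lateral liver lobe, taken at necropsy, about 5 µg for each array, was hybridised to an Affymetrix rat oligonucleotide array of 8799 probe sets. The labels give neither the magnesium content nor the length of the diets, nor the strain, sex or age of the rats, and no treatment other than diet. They do not say whether each array stands for a separate rat, so the p-values reflect only how these samples vary, and that variation may be technical.

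Magnesium is a cofactor of the enzymes that use ATP and of many that act on nucleic acids, and liver is where most plasma proteins, cholesterol and bile acids are made. A transcript that follows the supply of magnesium would be highest on one altered diet and lowest on the other, with the standard diet between them. The comparison described here asks the complementary question, which transcripts are higher, or lower, with both less and more magnesium than the standard diet supplies.

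No probe set passed the test in this comparison. Of 5133 probe sets tested, 0 (0%) had an adjusted p under 0.05 (limma, Benjamini-Hochberg), and the smallest adjusted p was 0.726. At an unadjusted p under 0.05 there were 148 probe sets, 2.88% of those tested, of which 77 (1.5%) were higher and 71 (1.38%) lower on the altered diets, fewer than the 256.7 that 5% of the tested probe sets would give. The split depended on how arrays were put on a common scale: it was 105 higher and 45 lower with the values as deposited, and 55 higher and 84 lower with arrays centred on their median. The same model gave 669 probe sets (13% of those tested) at that p, and 1 call (0.0195%), between the deficient and the supplemented diet, which uses none of the standard arrays' means. Leaving out standard array 9 raised the 148 to 242, leaving out supplemented array 5 raised it to 224, and no array's omission brought a call.

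The samples carried the label's tissue: albumin (Alb) was among the brightest probe sets, between 12.88 and 13.18 on the log2 scale on every array, and 11 of 14 fixed hepatocyte markers passed the filter on dim probe sets. Median signals ran from 18.0 to 34.4 units, and supplemented array 5 had the lowest mean rank correlation with the other arrays (0.913, where the others lay between 0.940 and 0.951). The log2 Gapdh 3'/5' signal ratio, a measure of RNA integrity and copying, was 1.64 ± 0.61 (SD, n = 5) on the standard, 0.71 ± 0.49 (SD, n = 5) on the supplemented and 1.84 ± 0.65 (SD, n = 4) on the deficient arrays. The 2 altered diets thus lay furthest apart from each other, and the part of this ratio in the 669 probe sets between them was not tested. The 9 altered arrays together lay 0.42 below the standard arrays on this ratio (two-sided exact permutation p = 0.323, adjusted p = 0.684 over 4 array measures). Without supplemented array 5, standard array 10 and deficient array 13, which stood apart in this ratio or in rank correlation, there were again 0 calls, with 184 probe sets at an unadjusted p under 0.05. Arrays within a diet also differed widely in cytochrome P450 genes that in rats are known for a male or female pattern, as given at the end.

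Among 3073 genes, each represented by its brightest probe set, 88 had an unadjusted p under 0.05 (2.86%), 48 higher (1.56%) and 40 lower (1.3%). In 54 of them (1.76%) the 2 altered diets differed from the standard diet the same way and the smaller difference was at least 0.5 of the larger, 32 higher and 22 lower. Both differences are taken from the same 5 standard arrays, so values that by chance lie low or high on those arrays move both of them, and the pair is no independent support of each other. The genes below are the 10 higher and the 10 lower with the smallest p among such genes, and none of them passed the test (adjusted p = 0.726 for Clec11a and Ssh3, 0.999 for each of the others). In 3 of the 10 higher genes, Clec11a, Srd5a3 and Kif12, the standard mean lay below the filter level of 3.83, so they entered only through the altered arrays, where they were bright, and had to be higher there. Their differences are given as a description, with no fold, since a standard signal that dim may be background, and their p supports nothing.

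Clec11a encodes a secreted lectin-domain growth factor of blood-forming and bone tissue. Its log2 signals were 4.30, 2.66, 3.17, 4.42 and 2.83 on standard arrays 6 to 10, 5.14, 4.92, 4.83, 4.94 and 5.70 on supplemented arrays 1 to 5 and 5.34, 5.45, 4.16 and 4.86 on deficient arrays 11 to 14. Each altered array but deficient array 13 lay above all standard arrays, and standard arrays 7, 8 and 10 were dimmer than the filter level, as was the standard mean of 3.48. The difference was 1.55 ± 0.33 (SE), made of 1.63 for the supplemented and 1.48 for the deficient diet.

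Ssh3, a phosphatase that activates the actin-cutting protein cofilin, did not overlap between the groups. It was at 4.18, 4.34, 4.09, 4.41 and 3.07 on the standard arrays, at 5.33, 4.92, 5.07, 5.00 and 5.22 on the supplemented arrays and at 5.05, 4.54, 5.12 and 4.90 on the deficient arrays. Standard array 10 lay far below the rest of its group, and deficient array 12 came closest to the standard values. The altered diets were 0.99 ± 0.22 (SE) or 1.98-fold higher (unadjusted p = 0.000425), and 0.70 higher without the 3 arrays that stood apart. Deficient minus supplemented was -0.20 (95% interval -0.77 to 0.36).

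Ebp, a sterol isomerase of cholesterol synthesis, had a small difference and a small spread. Its signals were 8.98, 8.50, 8.67, 9.04 and 8.93 on the standard arrays, 9.27, 9.06, 9.31, 9.21 and 9.37 on the supplemented arrays and 9.24, 9.43, 9.48 and 9.15 on the deficient arrays. Every altered array lay above every standard array, by a narrow margin between supplemented array 2 and standard array 9. The difference was 0.46 ± 0.12 (SE), 1.37-fold (unadjusted p = 0.0021), with 0.08 (95% interval -0.24 to 0.40) for deficient minus supplemented. Clta, the clathrin light chain of coated vesicles, was likewise free of overlap. It was at 9.00, 9.20, 8.96, 9.19 and 8.92 on the standard arrays, 9.33, 9.26, 9.50, 9.46 and 9.76 on the supplemented arrays and 9.46, 9.36, 9.46 and 9.40 on the deficient arrays, a difference of 0.39 ± 0.11 (SE, unadjusted p = 0.00341). The lowest altered array, supplemented array 2, was just above standard array 7.

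Another gene of membrane traffic was Vps29, a subunit of the retromer that returns receptors from endosomes. It was 0.50 ± 0.14 (SE) higher, with group means of 7.59 ± 0.26 (SD, n = 5) on the standard, 8.14 ± 0.20 (SD, n = 5) on the supplemented diet, and 8.04 ± 0.15 (SD, n = 4) where magnesium was deficient. The values overlapped in standard array 9 and deficient array 13 alone, at 7.92 and 7.90. Srpk2, a kinase of splicing factors, was 0.56 ± 0.15 (SE) higher, but its other tested probe set, which was dimmer, was at -0.075, and the mean of both was 0.24. Cptp, which carries ceramide phosphate between membranes, was 0.48 ± 0.16 (SE) higher, with 0.44 for the supplemented and 0.52 for the deficient diet.

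The other higher genes were dim or rested on 1 probe set or array. Srd5a3, an enzyme of the dolichol pathway that feeds protein glycosylation, was 0.86 ± 0.26 (SE) higher, with a standard mean of 3.59. Standard arrays 6 to 9 were dimmer than the filter level, and standard array 10 was at 4.54, inside the altered range. Kif12, a kinesin motor gene, was 0.93 ± 0.31 (SE) higher, and 0.61 higher without standard array 6, which was at the floor. Its standard mean was 3.27. RT1-Bb, a class II antigen-presenting chain, was 0.50 ± 0.17 (SE) higher by its brighter probe set, whereas its other probe set was at -0.59 and the mean of both at -0.047. In its own fixed list, interferon response and antigen presentation, 7 of 15 measured genes were higher, with a median of -0.021.

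**Figure D1:**
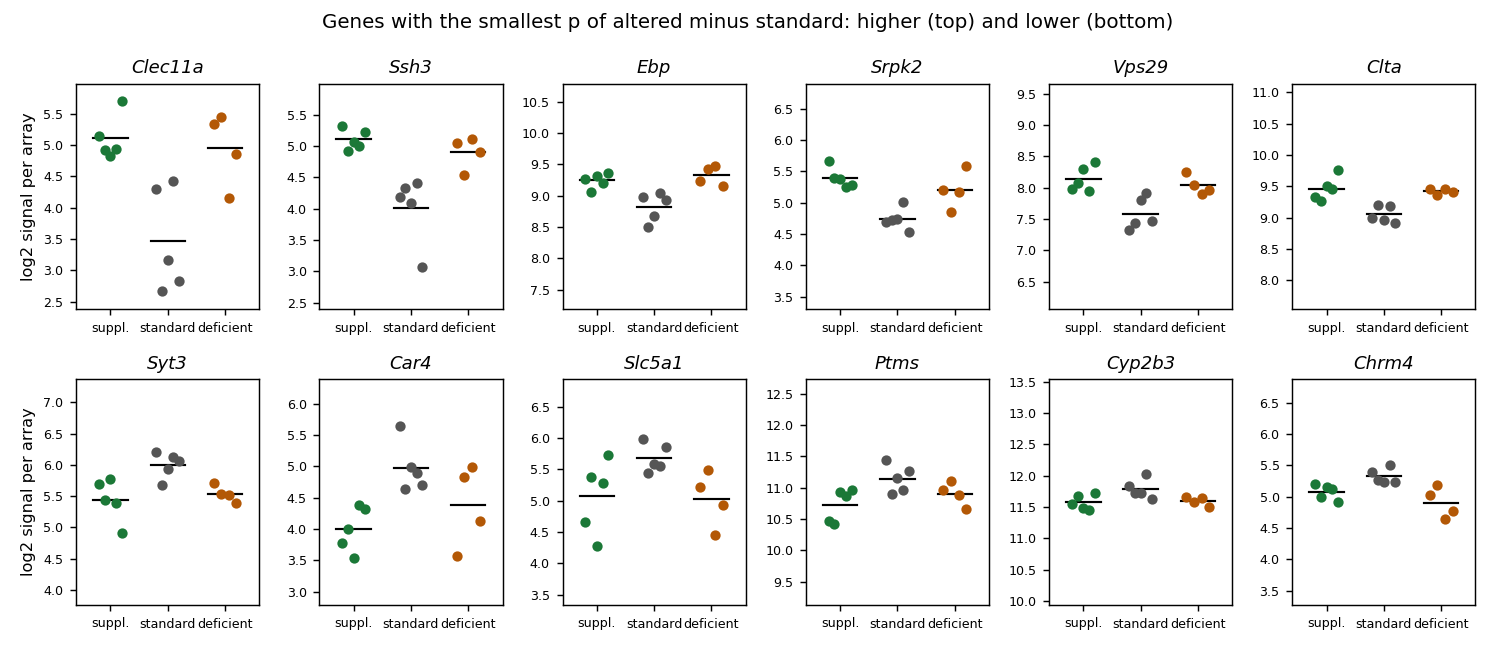
Log2 signal on each array (points) for the 6 higher genes (top row) and the 6 lower genes (bottom row) with the smallest p among genes that differed the same way on both altered diets, by diet; black lines are diet means, and every panel spans the same number of log2 units. In Ssh3, Ebp and Clta all 9 altered arrays lie above the 5 standard arrays, and in Chrm4 all lie below, while the other panels overlap in 1 or more arrays.

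Among the lower genes the smallest unadjusted p was 0.00581. It belonged to Syt3, a synaptotagmin, one of the calcium sensors of vesicle fusion. Its signals were 6.21, 5.68, 5.94, 6.13 and 6.06 on the standard arrays, 5.70, 5.44, 5.78, 5.39 and 4.92 on the supplemented arrays and 5.71, 5.53, 5.51 and 5.39 on the deficient arrays. Standard array 7 lay within the altered range and supplemented array 5 was lowest. The difference was -0.51 ± 0.16 (SE), and deficient minus supplemented was 0.09 (95% interval -0.32 to 0.50).

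Car4, a membrane-anchored carbonic anhydrase, was at 5.64, 4.63, 4.98, 4.90 and 4.70 on the standard arrays, 3.78, 3.99, 3.54, 4.39 and 4.31 on the supplemented arrays and 3.58, 4.83, 4.98 and 4.13 on the deficient arrays. All supplemented arrays lay below the standard ones, whereas deficient arrays 12 and 13 lay among them. The difference of -0.78 ± 0.26 (SE, unadjusted p = 0.00999) was made of -0.97 and -0.59 for the supplemented and the deficient diet. Slc5a1, the sodium and glucose cotransporter, was at -0.64 ± 0.24 (SE), with -0.62 and -0.66 in the same order, and the mean of its 2 probe sets was at -0.39.

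Chrm4, a muscarinic acetylcholine receptor gene, was the only lower gene without overlap. Standard arrays were at 5.40, 5.27, 5.24, 5.51 and 5.24, supplemented arrays at 5.20, 5.00, 5.16, 5.12 and 4.92 and deficient arrays at 5.03, 5.19, 4.64 and 4.77. Supplemented arrays 1 and 3 and deficient array 12 came within 0.1 of the lowest standard arrays. The difference was -0.34 ± 0.14 (SE, unadjusted p = 0.029), with -0.25 for the supplemented and -0.42 for the deficient diet.

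Of the remaining lower genes, 3 encode enzymes or their relatives that act on foreign compounds and lipids. Mgst3, a microsomal glutathione transferase, was at -0.47 ± 0.20 (SE), and the P450 gene Cyp2d4 at -0.33 ± 0.14. The P450 gene Cyp2b3 was at -0.21 ± 0.083 by its brightest probe set, but its other 2 probe sets were at 0.91 and 0.51, so that the mean of all 3 was 0.40. Cyp2b3 has close relatives in the genome, so its level is uncertain. Ptms, an acidic nuclear protein, was at -0.33 ± 0.13 (SE) by its brightest probe set, and at -0.45 and 0.036 by its others. Bcl2l2, which protects cells from apoptosis, was at -0.53 ± 0.22, and Esr2, the beta oestrogen receptor, at -0.65 ± 0.28.

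Over all tested probe sets, the 5 standard arrays did not overlap with the 9 altered arrays in 5 (0.0974% of 5133), of which 4 (0.0779%) were higher and 1 (0.0195%) lower on the altered diets. By gene it was 5 of 3073 (0.163%). These were Ssh3, Ebp, Clta and Chrm4 and, outside the naming rule and picked after its values were seen, Ndufc2. Ndufc2 encodes a subunit of respiratory complex I. It was at 8.37, 8.67, 8.81, 8.71 and 8.51 on the standard arrays, 9.14, 8.89, 8.89, 8.91 and 9.06 on the supplemented arrays and 8.86, 8.82, 8.92 and 8.89 on the deficient arrays, a difference of 0.31 ± 0.11 (SE, unadjusted p = 0.014). With supplemented array 5, standard array 10 and deficient array 13 left out the count was 35, since fewer arrays had to be separated. It was 12 without standard array 7, 13 without standard array 9, 9 without standard array 10, 11 without supplemented array 5 and 12 without deficient array 13.

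Of the 20 genes, 20 kept their direction without the 3 arrays that stood apart, and 15 kept an unadjusted p under 0.05. That number was 18 with the Gapdh 3'/5' ratio as a covariate. The genes were chosen for a small p, so that these counts describe the choice as much as the genes, and the 3 with a dim standard mean are among them.

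**Figure D2:**
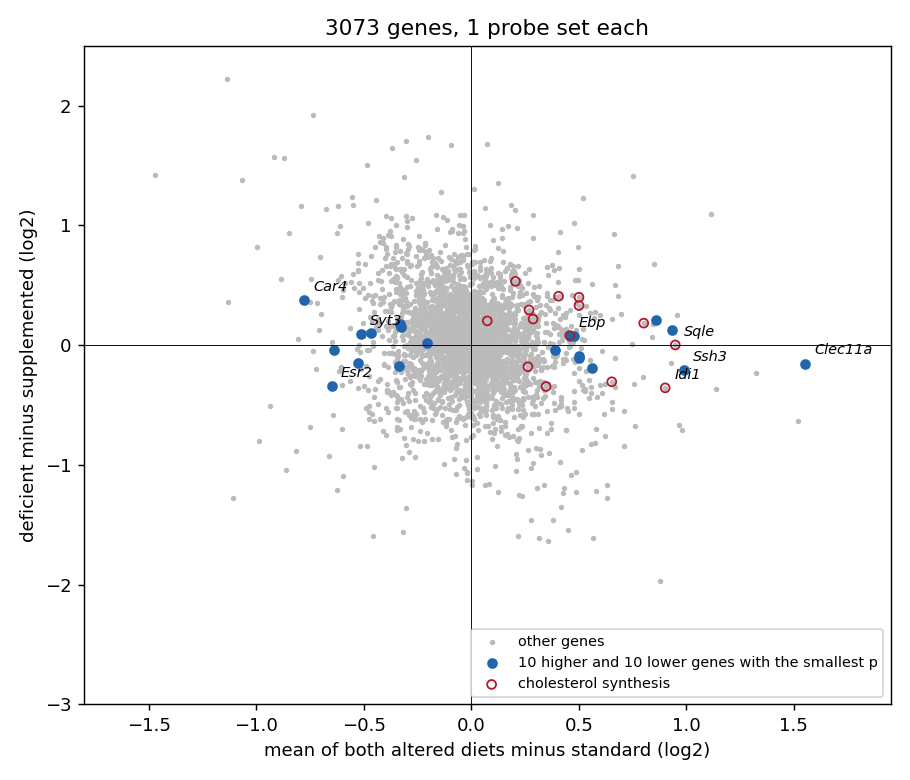
Each point is 1 of 3073 genes: the mean of both altered diets minus standard (x axis, log2) against deficient minus supplemented (y axis, log2). Blue points are the 10 higher and 10 lower genes with the smallest p, which the naming rule keeps near the horizontal line, and red circles are the 14 cholesterol synthesis genes, all right of 0. Clec11a, at 1.55, lies farthest right of the blue points.

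Cholesterol synthesis was the fixed list with the largest median difference, 0.43 on the log2 scale beside -0.014 over all genes. All 14 measured members of 20 were higher on the mean of the altered diets, where 46.9% of all genes were. By diet 12 were higher on the supplemented and 14 on the deficient diet, with medians of 0.34 and 0.50. Mvd and Dhcr7 were at -0.061 and -0.027 on the supplemented diet. These 2 and Mvk, Fdft1, Lss, Cyp51, Nsdhl and Hsd17b7 failed the rule that the smaller difference be at least 0.5 of the larger. Of the 14 members, 0 passed the test, and Ebp and Acat2 had an unadjusted p under 0.05. The list was chosen with earlier results of these data known, and the earlier comparisons of each diet with the standard arrays had already shown it higher, so its direction here is no independent support. What the values of single arrays add is where the difference comes from.

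The pathway joins acetyl units into mevalonate and squalene, which is then closed into a ring and trimmed to cholesterol, and its genes are known to be switched on together by the sterol-sensing factor SREBP-2 with the CCAAT-binding factor NF-Y. The averaged deviation of the 14 genes from their own 14-array means was -0.083, -0.76, -1.07, 0.49 and -0.078 on standard arrays 6 to 10. On the altered arrays it was 0.18, -0.076, 0.13, 0.45 and -0.085 for the supplemented and 0.14, 0.0025, 0.13 and 0.63 for the deficient diet. Standard arrays 7 and 8 lay below every other array, standard arrays 6 and 10 lay with the lower supplemented arrays, and standard array 9 lay above 8 of the 9 altered arrays. The list median of 0.43 was 0.26 without standard array 8, 0.33 without standard array 7 and 0.54 without standard array 9.

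**Figure D3:**
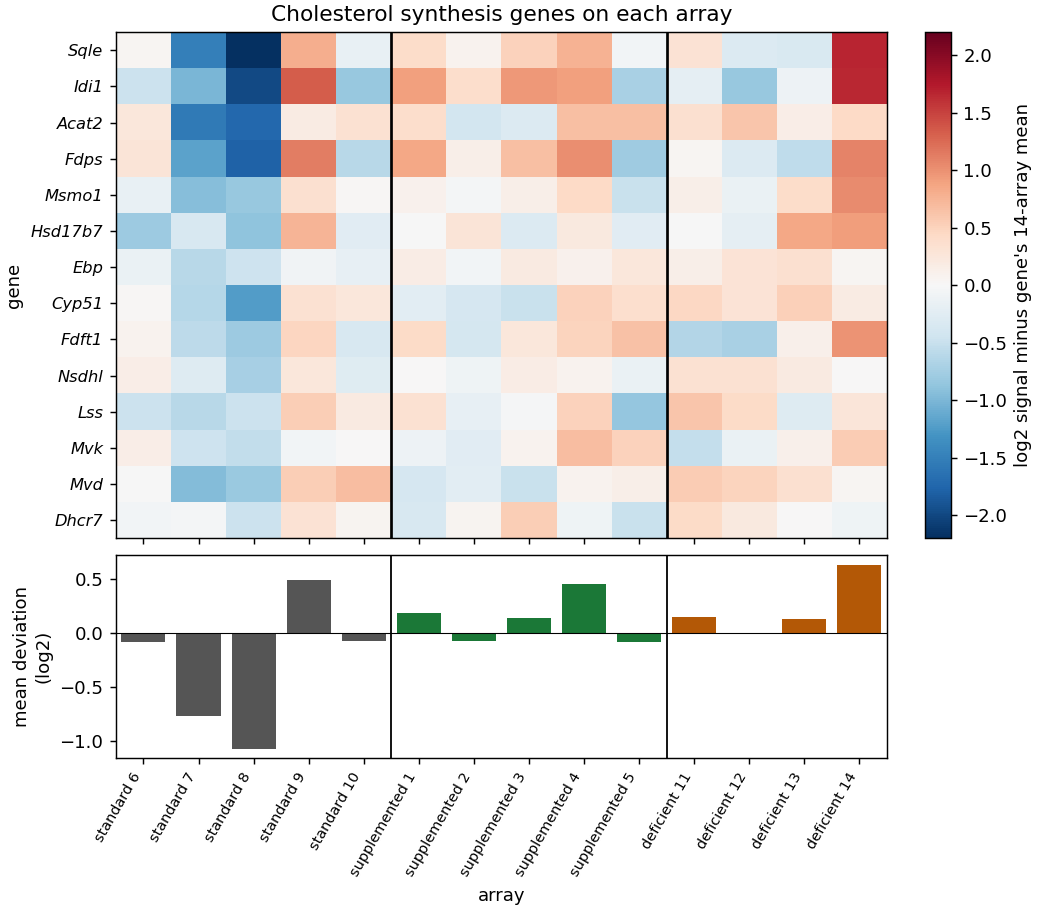
Upper panel: log2 signal of each of the 14 cholesterol synthesis genes (rows, ordered by their difference) on each array (columns, by diet), as the deviation from the gene's mean over 14 arrays. Lower panel: the mean deviation of the 14 genes on each array, at -0.76 and -1.07 for standard arrays 7 and 8 and 0.49 for standard array 9.

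At the start of the pathway Acat2, which joins acetyl units, was at 8.80, 6.99, 6.83, 8.73 and 8.88 on the standard arrays, 8.94, 8.15, 8.25, 9.22 and 9.22 on the supplemented arrays and 8.90, 9.16, 8.70 and 9.00 on the deficient arrays. Only standard arrays 7 and 8 lay apart, and the difference of 0.80 ± 0.35 (SE, unadjusted p = 0.0387) was 0.50 without standard array 8. Mvk, the mevalonate kinase, was at 0.26 ± 0.21 (SE), and 0.17 without standard array 8 or 0.17 without deficient array 14. As the mean of its probe sets it was 0.44. Mvd, which decarboxylates mevalonate diphosphate, was at 0.21 ± 0.26 and turned to -0.0043 without standard array 7. It was 0.028 without standard array 8, 0.37 without standard array 9 and 0.40 without standard array 10.

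Among the isoprenoid steps, Idi1, the isopentenyl diphosphate isomerase, was at 6.90, 6.38, 5.39, 8.70 and 6.55 on the standard arrays, 8.28, 7.77, 8.32, 8.28 and 6.66 on the supplemented arrays and 7.18, 6.54, 7.27 and 9.03 on the deficient arrays. Its difference was 0.90 ± 0.50 (SE, unadjusted p = 0.0896), from 0.55 without standard array 8 to 1.38 without standard array 9. Within the standard diet alone the arrays ran over more than 3 log2 units. Fdps, which makes farnesyl diphosphate, was at 0.65 ± 0.44, with 0.32 without standard array 8 and 1.04 without standard array 9. Fdft1, the squalene synthase, was at 0.35 ± 0.29, 0.17 without deficient array 14, 0.21 without standard array 8 and 0.52 without standard array 9.

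Sqle, the oxygenase that commits squalene to sterols, followed the same arrays. It was at 7.84, 6.29, 5.58, 8.60 and 7.64 on the standard arrays, 8.21, 7.88, 8.31, 8.56 and 7.73 on the supplemented arrays and 8.11, 7.50, 7.47 and 9.48 on the deficient arrays. The difference was 0.95 ± 0.45 (SE, unadjusted p = 0.0514), with 0.95 on the supplemented and 0.95 on the deficient diet, and 0.55 without standard array 8. Lss, which closes the sterol ring, was at 0.27 ± 0.25 by its brightest probe set. That was 0.16 without standard array 7 and 0.45 without standard array 9. Its 2 dimmer probe sets were at 0.82 ± 0.24 (unadjusted p = 0.00372) and 1.89 ± 0.62. The latter had a mean of 4.03 over all arrays, so with that difference its standard mean lay below the filter level of 3.83. That probe set entered only through the altered arrays and had to be higher there, so its difference is a description.

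Of the late steps, Cyp51, a sterol demethylase, was at 0.41 ± 0.25 (SE) and 0.16 without standard array 8. Its dimmer probe sets were at 0.31, 0.44, 0.57 and -0.22. Msmo1, which removes methyl groups, was at 0.50 ± 0.24 (0.78 as the mean of its probe sets), and its partner enzymes Nsdhl and Hsd17b7 were at 0.29 ± 0.15 and 0.50 ± 0.27. Nsdhl was at 0.15 without standard array 8, and Hsd17b7 at 0.77 without standard array 9. Dhcr7, which makes cholesterol in the last step, was at 0.075 ± 0.18, less than its SE, and turned to -0.031 without standard array 8. Ebp, described above, had the smallest SD on the standard arrays among the 14 genes, 0.23, with 0.28 for Dhcr7. Its standard arrays were likewise lowest on arrays 7 and 8 and highest on array 9. The difference of Ebp lay between 0.38 and 0.51 in every alternative.

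The sequences upstream of these genes were read for the CCAAT box, since NF-Y is known to bind that box next to SREBP-2. The 250 bases before the start of 3 members follow, from RefSeq's rat genome GRCr8, written 5' to 3' in the direction of the gene, with each CCAAT or, on the other strand, ATTGG in capitals. They were chosen to show Ebp, whose arrays did not overlap, Idi1, whose standard arrays spanned over 3 log2 units, and Nsdhl, which had 5 matches.
Ebp (chrX:16971212-16971461, plus strand): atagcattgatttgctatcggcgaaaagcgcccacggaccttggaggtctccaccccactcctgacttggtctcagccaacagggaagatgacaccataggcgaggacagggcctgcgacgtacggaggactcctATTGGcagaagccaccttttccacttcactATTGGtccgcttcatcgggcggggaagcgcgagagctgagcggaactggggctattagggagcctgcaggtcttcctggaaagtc
Idi1 (chr17:66547525-66547774, minus strand): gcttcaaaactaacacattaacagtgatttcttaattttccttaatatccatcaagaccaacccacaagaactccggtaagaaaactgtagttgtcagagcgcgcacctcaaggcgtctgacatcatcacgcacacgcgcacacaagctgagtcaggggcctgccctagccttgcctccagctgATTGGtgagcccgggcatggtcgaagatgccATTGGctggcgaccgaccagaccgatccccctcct
Nsdhl (chrX:155817110-155817359, plus strand): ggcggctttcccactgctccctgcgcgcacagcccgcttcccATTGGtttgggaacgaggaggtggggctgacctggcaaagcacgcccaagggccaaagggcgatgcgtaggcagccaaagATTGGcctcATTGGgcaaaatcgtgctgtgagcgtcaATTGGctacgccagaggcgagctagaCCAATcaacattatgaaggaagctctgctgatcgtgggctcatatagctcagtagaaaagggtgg
The promoters of 12 of the 14 genes were in the table, and 9 of them held the letters CCAAT on either strand. Among promoters of the 2534 tested genes found there, 37.2% did, and among all 33469 promoters 34.0%. The letters of a sterol response element, TCACNCCAC, and of an E-box, CACGTG, were found in 0 of the 12, beside 0.789% and 8.68% of the promoters of tested genes. The motifs do not overlap one another's letters. A match is a description of the letters and not of a bound site, and the lack of one says only that these letters are not in this window.

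Genes that take up cholesterol or sense sterols were measured in 6 of 19 members, 4 of them higher, with a median of 0.069, or -0.0027 without the 3 arrays that stood apart. Insig1, which holds back SREBP when sterols are ample, was at 0.39 ± 0.22 (SE, unadjusted p = 0.105) and Srebf1 at -0.25 ± 0.30. For fatty acid synthesis 9 of 11 measured genes were higher, with a median of 0.059, led by Acacb, an acetyl-CoA carboxylase, at 0.62 ± 0.31. The averaged deviation of that list was again lowest on standard arrays 7 and 8, at -0.55 and -0.74, and the median turned to -0.048 without standard array 8 and was 0.25 without standard array 6. In both lists 0 genes had an unadjusted p under 0.05.

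Genes that burn fatty acids leaned the other way. In mitochondrial fatty acid oxidation and ketogenesis 12 of 14 measured genes were lower, with a median of -0.13, and among peroxisomal and PPAR-alpha targets 7 of 10 were lower, with a median of -0.18. Decr1 and Eci1, which handle unsaturated fatty acids, were at -0.39 ± 0.35 and -0.36 ± 0.35 (SE), Acox2, a peroxisomal oxidase, at -0.42 ± 0.26 and the receptor gene Ppara at -0.42 ± 0.25. None had an unadjusted p under 0.05, and over all genes 1631 of 3073 were lower. By diet the mitochondrial median was -0.17 on the supplemented and -0.065 on the deficient diet, and the peroxisomal one -0.36 on the supplemented and -0.11 on the deficient diet. With 1 array left out they ran from -0.17 without standard array 6 to -0.063 without standard array 8, and from -0.32 without standard array 6 to -0.088 without standard array 9.

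Bile acid genes were divided, with 9 of 14 measured members higher and a median of 0.065, which turned to -0.015 without standard array 10. Both members at an unadjusted p under 0.05 were export pumps, beside a background of 2.86% of genes. Abcc3, of the sinusoidal membrane, was at 4.35, 4.25, 3.35, 4.87 and 4.05 on the standard arrays, 4.68, 4.03, 5.11, 6.68 and 5.38 on the supplemented arrays and 5.44, 3.89, 4.90 and 5.89 on the deficient arrays, a difference of 0.93 ± 0.41 (SE, unadjusted p = 0.0391). Supplemented array 4 was highest, and the groups overlapped broadly. Abcb11, the canalicular bile salt pump, was at 0.38 ± 0.17 (unadjusted p = 0.0448), with 0.57 on the supplemented and 0.19 on the deficient diet. Cyp7a1, the rate-limiting enzyme of bile acid synthesis, was at -0.18 ± 0.56 and Cyp7b1, of the alternative route, at -0.81 ± 0.55.

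Heat shock protein genes were lower in 10 of 11 measured members, with a median of -0.17 and 0 at an unadjusted p under 0.05. The chaperone gene Hsph1 was at -0.47 ± 0.29 (SE), Dnajb1 at -0.37 ± 0.32 and the small heat shock gene Hspb1 at -0.48 ± 0.45. Standard array 10, with a log2 Gapdh 3'/5' ratio of 2.65, had the highest averaged deviation of the list, 0.69. Hspb1 was at 9.37 there against 6.39 to 7.77 on the other standard arrays. Deficient array 13, with a similar ratio of 2.68, had the lowest averaged deviation of all arrays, -0.38. By diet the list median was -0.20 on the supplemented and -0.31 on the deficient diet, and with 1 array left out it ran from -0.25 without standard array 6 to -0.10 without standard array 10. Without the 3 arrays that stood apart it was -0.081. With the Gapdh ratio as a covariate it was -0.22, and 9 of 11 genes were lower.

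Markers of macrophages and Kupffer cells were higher in 8 of 8 measured members of 18, with a median of 0.21 and 0 at an unadjusted p under 0.05. By diet the median was 0.31 on the supplemented and 0.10 on the deficient diet, with 8 and 6 of the 8 higher. Without standard array 10, whose averaged deviation of -0.58 was the lowest of all arrays, 6 of 8 were higher, and the median ran from 0.20 without standard array 10 to 0.33 without standard array 7. In bulk tissue, more cells of a type and more RNA per cell cannot be told apart. Lyz2, the lysozyme gene, was at 0.48 ± 0.41 (SE), Cd53, a tetraspanin of blood cells, at 0.45 ± 0.30, Cyba, of the phagocyte oxidase, at 0.27 ± 0.19, and Clec4f, a Kupffer cell lectin, at 0.18 ± 0.13, made of 0.37 on the supplemented and -0.0043 on the deficient diet. The summed signal of the 8 genes ran from 1221 to 1807 units on the standard, 1333 to 2065 on the supplemented and 1432 to 1640 on the deficient arrays, and none of the 8 was at the floor on any array. The groups therefore overlapped. S100a9, a neutrophil protein gene, was at 3.75, 2.74, 3.80, 3.64 and 4.21 on the standard arrays, 4.42, 4.89, 4.60, 4.94 and 3.94 on the supplemented arrays and 4.00, 5.01, 3.86 and 4.30 on the deficient arrays, a difference of 0.80 ± 0.28 (SE). Its standard mean of 3.63 lay below the filter level, so it entered only through the altered arrays and had to be higher there, and the difference is a description. Of the 6 measured lymphocyte and neutrophil markers 4 were lower, among them the T cell genes Cd4 at -0.45 ± 0.38 and Cd5 at -0.34 ± 0.20. The median of that list, -0.21, turned to 0.17 with the filter at the 60th percentile.

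The other marker lists differed little or held few measured genes. Hepatocyte markers had a median of -0.038, with 9 of 11 lower. That median ran from -0.079 without standard array 6 to -0.022 without standard array 9. By diet it was 0.00016 on the supplemented diet, with 6 of 11 higher, and -0.11 on the deficient diet, with 1 higher. Markers of endothelial, stellate and fibroblast cells had a median of 0.0012 over 13 genes. Red blood cell markers had a median of 0.14 over 5 genes, with Alas2, of haem synthesis, at 0.41 ± 0.20 (SE) and the globin gene Hbb at 0.27 ± 0.15. With 1 array left out that median ran from 0.048 without deficient array 12 to 0.25 without deficient array 14. Bile duct markers had a median of 0.15 over 5 genes, which turned to -0.043 with the filter at the 60th percentile, was 0.39 without the 3 arrays that stood apart and ran from 0.041 without supplemented array 4 to 0.29 without standard array 10. Markers of pancreas, fat and muscle had the lowest median of all lists, -0.23, with 6 of 7 lower, among them the amylase gene Amy2a3 at -0.27 ± 0.19 (unadjusted p = 0.184), and the median ran from -0.30 without deficient array 12 to -0.12 without deficient array 14. Their part in the differences above was not tested.

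Single members of other lists reached an unadjusted p under 0.05 but did not pass the test. Sod3, the extracellular superoxide dismutase, was at 7.22, 6.58, 6.76, 6.46 and 6.80 on the standard arrays, 6.76, 6.21, 6.52, 6.08 and 6.50 on the supplemented arrays and 5.84, 6.28, 5.86 and 6.27 on the deficient arrays. Its difference was -0.53 ± 0.16 (SE, unadjusted p = 0.00606), with -0.70 on the deficient and -0.35 on the supplemented diet, and 5 of the 15 antioxidant genes were higher. Bhlhe40, a clock-controlled repressor, was 0.50 ± 0.19 higher, with 0.59 and 0.41 on the supplemented and deficient diet, and 7 of 8 clock genes were higher with a median of 0.17. By diet that median was 0.29 on the supplemented and 0.0043 on the deficient diet, where 6 and 4 of the 8 genes were higher, and with 1 array left out it ran from 0.078 without deficient array 13 to 0.22 without standard array 10. Dbp, a clock output gene, ran from 1.97, the floor, to 8.19 within the standard diet alone.

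Gsta3, a glutathione transferase, was at 1.14 ± 0.46 (SE, unadjusted p = 0.0261), and its other 2 probe sets were at 1.26 and 0.83. It was at 8.79, 6.40, 7.42, 8.90 and 6.04 on the standard arrays, where arrays 7, 8 and 10 were low, and between 7.63 and 9.60 on the altered arrays. Without the 3 arrays that stood apart it was at 0.65. Cish, which damps growth hormone signals, was at 0.97 ± 0.44, with 1.30 on the supplemented and 0.63 on the deficient diet. Without standard array 8 it was at 0.63. Of the 14 genes of the growth hormone and IGF axis 11 were lower, with a median of -0.19. That median ran from -0.22 without standard array 7 to -0.12 without deficient array 14. Myc was at 0.50 ± 0.22 and Racgap1, of cell division, at -0.39 ± 0.17. Itpr3, a calcium channel of the endoplasmic reticulum, was at -0.39 ± 0.18 by its brighter probe set and at -0.017 by the other. By the brighter one it was at -0.20 on the supplemented and -0.58 on the deficient diet. Rps24, a ribosomal protein gene, was at -0.52 ± 0.21, with -0.87 on the supplemented and -0.18 on the deficient diet. Sod3, Cish, Itpr3 and Rps24 failed the rule that the smaller difference be at least 0.5 of the larger.

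Magnesium transport genes had a median of 0.021 in this comparison, over 6 measured genes of 22, with 0 at an unadjusted p under 0.05. That median averages diets on opposite sides of the standard. It was 0.11 on the supplemented diet, with 5 of the 6 higher, and -0.11 on the deficient diet, with 1 higher. The magnesium transporter Magt1 was at 0.30 ± 0.27 (SE), made of 0.73 on the supplemented and -0.13 on the deficient diet, so the 2 diets lay on opposite sides of the standard. The carrier gene Slc41a2 was at 0.0036 ± 0.13 and Slc41a3 at -0.28 ± 0.28. Of the other lists, cytosolic ribosomal proteins were higher in 27 of 36 genes, by a median of only 0.055. By diet 19 of the 36 were higher on the supplemented diet (median 0.036) and 34 on the deficient diet (median 0.13). Acute phase proteins were higher in 12 of 16 (0.071), and proteasome subunits were lower in 15 of 22 (-0.07). The directions of these 3 lists depended on the setting. Centring arrays on their median turned ribosomal proteins to -0.0051 and acute phase proteins to -0.069, the values as deposited turned the latter to -0.021, and the proteasome turned to 0.0028 without standard array 10. The magnesium transport median turned to -0.017 without standard array 6.

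**Figure D4:**
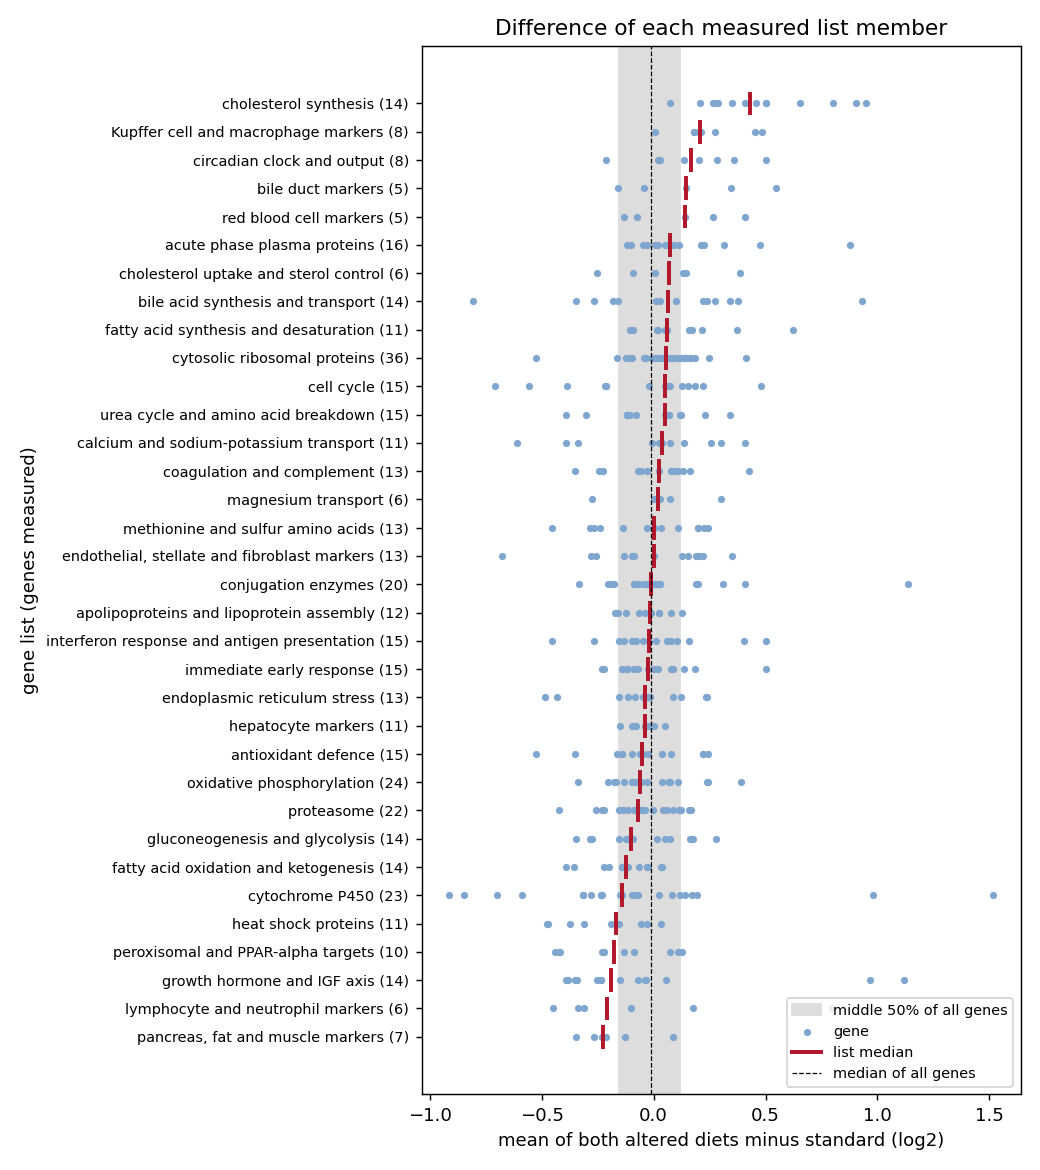
Difference of the altered diets from the standard diet (x axis, log2) for each measured gene (points) of the 34 fixed lists, with the list median (red bar), ordered by median; the grey band holds the middle 50% of all 3073 genes. Cholesterol synthesis stands highest at 0.43, Kupffer cell and macrophage markers follow at 0.21, and the pancreas, fat and muscle markers are lowest at -0.23.

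A difference of the altered diets from the standard can also come from 1 diet alone, and 34 of the 88 genes at an unadjusted p under 0.05 failed the rule that the smaller difference be at least 0.5 of the larger. The actin-binding gene Coro7 was at -0.50 with -0.74 on the supplemented and -0.26 on the deficient diet. Scn4a, a sodium channel gene, was at -0.86 with -0.34 and -1.38. In 1 of the 34 the signs were opposite: Crispld2, a secreted cysteine-rich protein, was at -1.70 on the supplemented and 0.23 on the deficient diet. These 3 genes were picked after their values were seen.

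Some cytochrome P450 genes ranged widely within a diet. In rat liver Cyp2c11, Cyp2c13, Cyp3a2 and Cyp2a2 are known for a male and Cyp2c12 for a female pattern, set by growth hormone. They were picked for description after their values were seen. Cyp2c12 was at 5.77, 4.05, 4.76, 9.09 and 5.08 on the standard arrays, 5.10, 7.26, 10.33, 9.46 and 5.77 on the supplemented arrays and 8.93, 5.24, 8.87 and 4.78 on the deficient arrays. Cyp2c11 was at 11.97, 12.04, 12.02, 9.74 and 12.02, at 11.96, 11.73, 8.51, 8.98 and 12.39 and at 10.75, 11.45, 11.00 and 11.72 in the same order. Supplemented arrays 3 and 4, standard array 9 and deficient arrays 11 and 13 had the highest Cyp2c12 and the lowest Cyp2c11 of all arrays. Every diet thus held arrays of both kinds, but not evenly. Array 9 was the only such array of the standard diet, and each altered diet held more.

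Those 5 arrays were also the lowest in Cyp2c13, which was at 11.58, 11.94, 11.66, 8.93 and 11.15 on the standard arrays, 11.33, 11.85, 8.18, 5.48 and 11.83 on the supplemented arrays and 9.95, 11.36, 9.86 and 11.53 on the deficient arrays. Between diets no difference reached 2 times its error: Cyp2c12 was at 1.52 ± 1.04 (SE), Cyp2c11 at -0.59 ± 0.62, Cyp2c13 at -0.85 ± 0.92, Cyp3a2 at -0.92 ± 1.21 and Cyp2a2 at -0.70 ± 0.47. With Cyp2c11 minus Cyp2c12 of each array as a covariate, an alternative added after the data were seen, limma called 0 probe sets. At an unadjusted p under 0.05 there were 149, and 17 of the 20 genes above kept such a p. Those genes were chosen for a small p, so this count too describes the choice as much as the genes. With that covariate the cholesterol synthesis median was 0.34, with 13 of 14 genes higher. The sex of the rats is not given in the labels, and its part in these ranges was not tested.

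**Figure D5:**
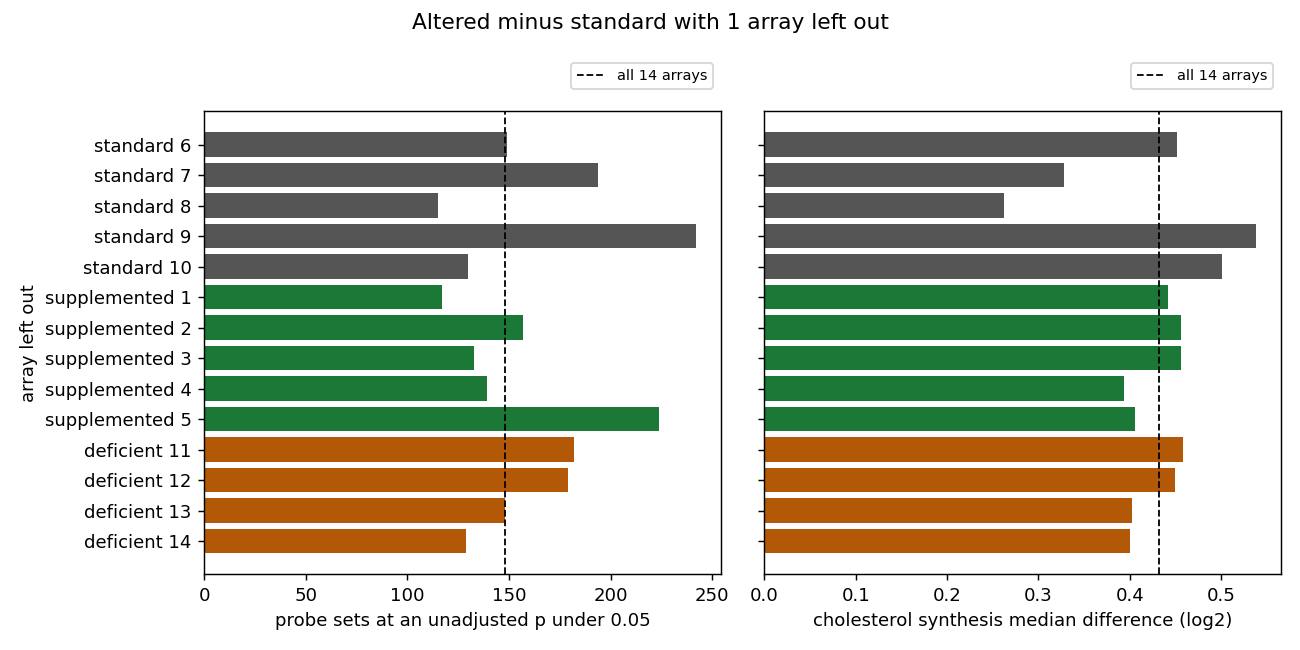
Effect of leaving out each array in turn (rows, coloured by diet): the number of probe sets at an unadjusted p under 0.05 (left) and the median difference of the cholesterol synthesis genes (right, log2), with dashed lines for all 14 arrays (148 probe sets and 0.43). The count is highest without standard array 9 (242), and the median is lowest without standard array 8 (0.26).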

How the data were processed

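Liver RNA of 14 rat samples was measured on 1-colour Affymetrix arrays. The deposited values are signal intensity values on a linear scale, from 0.0104 to 16556 units, with a mean of 150.3 units on every array once the top and bottom 2% are trimmed. Which software made them is not given in the sources used here, and no detection calls were used. Array medians differed by up to 1.91 times, so the 8740 probe sets other than the 59 controls were quantile normalised on the log2 scale. A floor was set at 3.93 units (20th percentile of all values), and a probe set was kept if its mean was over 3.83 on the log2 scale, or 14.3 units (40th percentile). This left 5133. Symbols came from the platform annotation: 7006 probe sets had 1 symbol, 308 several and 1426 none, and 6985 matched the current rat gene table. The brightest probe set stood for each gene, without regard to others.

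One linear model of the 3 diets was fitted in R 4.3.3 with limma 3.58.1, using its trended eBayes, with Benjamini-Hochberg adjustment over all 5133 probe sets. Tests were two-sided. Array measures were compared by exact permutation over 2002 assignments. Named genes were the 10 higher and 10 lower by p that differed the same way on both diets, all cholesterol synthesis members, and the member with the smallest p of each other list where that p was under 0.05. The comparison, its members and the 34 lists were chosen with earlier results of these data known. Gene lists are given as counts and medians. The procedure was tested on simulated data. Alternatives covered scaling, floor, filter, model, covariates, probe sets and arrays left out. Without detection calls a dim signal may lie at background, and the number of arrays limits precision.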

Additional observations from a re-analysis of the deposited data

Results flagged for a closer look

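In 144 groups of 4 or 5 arrays, for the named genes, the array measures and the cholesterol synthesis list, 5 values lay so far from the rest of their diet that their gap exceeded the 95% limit of Dixon's test, where chance flags about 1 in 20 groups. Supplemented array 5 had a mean rank correlation with the other arrays of 0.913, where the next lowest supplemented array had 0.945. On the same array the ribosomal protein gene Rps24 was at 4.04, with the other supplemented arrays from 4.96 to 5.27. Ssh3 was at 3.07 on standard array 10, with the others from 4.09 to 4.41. Esr2 was at 3.65 on deficient array 13, with the others from 4.95 to 5.18. Cish was at 6.78 on deficient array 11, with the others from 4.85 to 5.07.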

How the results depend on the processing

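Limma called 0 probe sets in all 27 alternatives that give such a count, with 148 at an unadjusted p under 0.05 in the main one. That second number was 294 with no filter and 78 with the filter at the 60th percentile, which test 8218 and 3465 probe sets, and ran from 115 to 242 with 1 array left out. The 5 probe sets without overlap became 3 with arrays centred on their median or with the filter at the 60th percentile, 35 without the 3 arrays that stood apart, and from 5 to 13 with 1 array left out. The cholesterol synthesis median stayed between 0.26 and 0.54. Of the 43 named genes 39 kept their direction throughout. Cyp2b3 turned to 0.40 and RT1-Bb to -0.047 with the mean of all probe sets of the gene. Dhcr7 turned to -0.031 and -0.0021 without standard array 8 or supplemented array 3, with up to 0.16 (without standard array 9) among single arrays left out, and to -0.073 with Cyp2c11 minus Cyp2c12 as a covariate, and Mvd to -0.0043 without standard array 7. The causes were not tested. List medians kept their sign in every alternative for 13 of 34 lists. No paired analysis was possible because the array numbers run on from diet to diet and no number is shared.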
